A study of Mus musculus with 12 samples.

Results

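The 10 genes described here carry iron into the cell, store it, export it, sense it, or release it from heme: Tfrc, Trf, Slc11a2, Slc40a1, Fth1, Ftl1, Ireb2, Aco1, Hmox1 and Cp. They were taken by gene name from a table of raw read counts for 54446 mouse genes, in which all 10 were found, and 9 of them, all but Trf, had enough reads to be among the 14724 genes tested. The samples were 12 RNA-seq libraries from NIH3T3, an immortal line of mouse embryonic fibroblasts, with 3 replicates in each of 4 groups: wild type in normoxia, wild type in hypoxia, ΔN-VEGF in normoxia and ΔN-VEGF in hypoxia. N-VEGF is the amino-terminal part of a long form of VEGF, translated from an upstream start on the Vegfa mRNA, and in ΔN-VEGF cells its coding region was deleted on both alleles by CRISPR-Cas9 while the start of classical VEGF was left in place. The deleted cells came from drug-resistant clones in which a reporter cassette replaced the region and was then removed by VCre recombinase and cell sorting, and the labels do not name the clone sequenced, so line and clone cannot be told apart. Hypoxic cultures had been held below 0.2% oxygen for 16 h and normoxic cultures in air for a similar time. The labels do not say whether replicates were separate cultures, so p-values measure the spread between these libraries, which may be technical.

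Mammalian cells take up iron mainly as transferrin-bound iron through the transferrin receptor, and the divalent metal transporter moves it from the endosome to the cytosol. Spare iron is held in ferritin, a shell of heavy and light chains, and leaves the cell through ferroportin, helped by multicopper oxidases. When iron is scarce, the iron regulatory proteins IRP1 and IRP2 bind iron-responsive elements (IREs), short stem-loops in untranslated regions: a 5′ IRE is then blocked from translation, while the 3′ IREs of the transferrin receptor mRNA protect it from decay. Heme oxygenase 1 opens the heme ring and frees its iron, and its gene is a well-known target of oxidative, heme and hypoxic stress.

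The IREs found by a search are shown because they mark mRNAs whose abundance can follow iron through decay and mRNAs whose translation does. A search of untranslated regions on the sense strand (GRCm38.p6, GENCODE M21) for a bulged C, 5 paired bases, a loop of CAGTG and 1 further base other than G, and a lower stem with at least 4 of 6 bases paired found sites of 29 bases in 4 members. In the sequences, given 5′ to 3′, capitals mark the bulged C and the 6 loop bases. The 5′ sites lie at chr19:9982732-9982760 on the plus strand for Fth1, at chr7:45459779-45459807 on the minus strand for Ftl1 and at chr1:45925465-45925493 on the minus strand for Slc40a1.
Fth1: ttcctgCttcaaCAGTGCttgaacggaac
Ftl1: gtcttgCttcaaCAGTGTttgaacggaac
Slc40a1: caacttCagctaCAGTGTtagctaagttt
The Tfrc 3′ untranslated region held 4 sites on the plus strand, at chr16:32631219-32631247, chr16:32631598-32631626, chr16:32631663-32631691 and chr16:32631710-32631738.
Tfrc site 1: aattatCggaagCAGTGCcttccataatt
Tfrc site 2: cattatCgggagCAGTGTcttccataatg
Tfrc site 3: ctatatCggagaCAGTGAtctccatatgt
Tfrc site 4: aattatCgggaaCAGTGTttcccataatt
Such a site was found in the 5′ region of 6 of 20916 genes (0.029%) and in the 3′ region of 11 of 21039 genes (0.052%). The rule was built on the known shape of these elements, so finding them is a description, and the lack of a match in the other members says only that this pattern was not in the regions searched.

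Library totals ran from 30519052 to 43056690 counts. Replicate 2 of wild type in normoxia stood apart: its log2 expression correlated at 0.956 and 0.957 with the other wild type normoxia libraries, which correlated at 0.996 with each other. Replicate 2 of ΔN-VEGF in normoxia stood apart less, at 0.986 with both of its partners. The fits were therefore repeated without these 2 libraries (the reduced set), with the main values of those fits given beside the results. The reduced set has n = 2 in each normoxia group, and the kept pairs correlated at 0.996 in both lines. Its SE and p measure the spread left after the deviating libraries were taken out. Of 7 fibroblast markers, all had a mean above 1 CPM (reads of a gene scaled by the size of the library) in every group, with sums from 16821 to 42607 CPM. All 5 erythroid markers together reached at most 0.319 CPM in a library, with 4 of 5 at 0 throughout. Macrophage markers summed to 22.5 to 37.5 CPM in normoxia and 46.5 to 63.8 CPM in hypoxia, with Ptprc, Adgre1 and Itgam at most 0.19 CPM and Csf1r at 0.84 to 9.03 CPM in normoxia and 28.85 to 53.79 CPM in hypoxia. Of the other macrophage markers, Cd68 was at 2.84 to 4.27 CPM in normoxia and 4.34 to 6.68 CPM in hypoxia, and Cd14 went the other way, from 13.12 to 24.52 CPM in normoxia to 3.83 to 12.6 CPM in hypoxia. Endothelial markers summed to 1.81 to 4.23 CPM in normoxia and 5.91 to 25.1 CPM in hypoxia, mostly Cdh5. The epithelial and hepatocyte lists stayed at or below 2.42 and 1.17 CPM, and the part of these genes in the results was not tested. In bulk RNA, fewer expressing cells and less RNA per cell cannot be told apart. Counts of the whole Vegfa gene do not check the deletion, which removes part of its transcript. Of 8 genes listed as a check of the hypoxic response, 7 rose in each line and none fell (edgeR, adjusted p below 0.05). Without the 2 libraries 7 rose and 1 fell in wild type, and 8 rose in ΔN-VEGF. Vegfa averaged 69.4 and 280 CPM in wild type and 35.7 and 429 CPM in ΔN-VEGF, in normoxia and hypoxia.

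In hypoxia Hmox1, of heme breakdown, and Ftl1, the ferritin light chain, rose in each line, and Slc11a2, a metal transporter, and Aco1, which encodes IRP1, fell. With edgeR's quasi-likelihood test and an adjusted p below 0.05, 2 of the 9 tested members rose in wild type and 3 fell. Among all tested genes 18.2% rose and 18.3% fell. In ΔN-VEGF 3 members rose and 3 fell, against 26.9% and 26.4% of all tested genes. With a change of at least 2-fold required as well, 2 members were called in wild type and 4 in ΔN-VEGF, against 15.7% and 27.2% of all tested genes. Without the 2 normoxia libraries numbered 2, 3 members rose and 4 fell in wild type, against 32.8% and 32.5% of all tested genes (65.3% in either direction). In ΔN-VEGF 3 rose and 5 fell, against 35.4% and 36% (71.4% in either direction). Fitted on its own 6 libraries, the wild type comparison called 3 members, against 23.8% of the genes tested there. A share of members near that of all genes is not a result about the members. The median of all tested genes shifted by -0.07 and -0.01 on the log2 scale with TMM scaling, and by -0.30 and -0.41 when only total counts were scaled, in wild type and ΔN-VEGF.

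**Figure D1:**
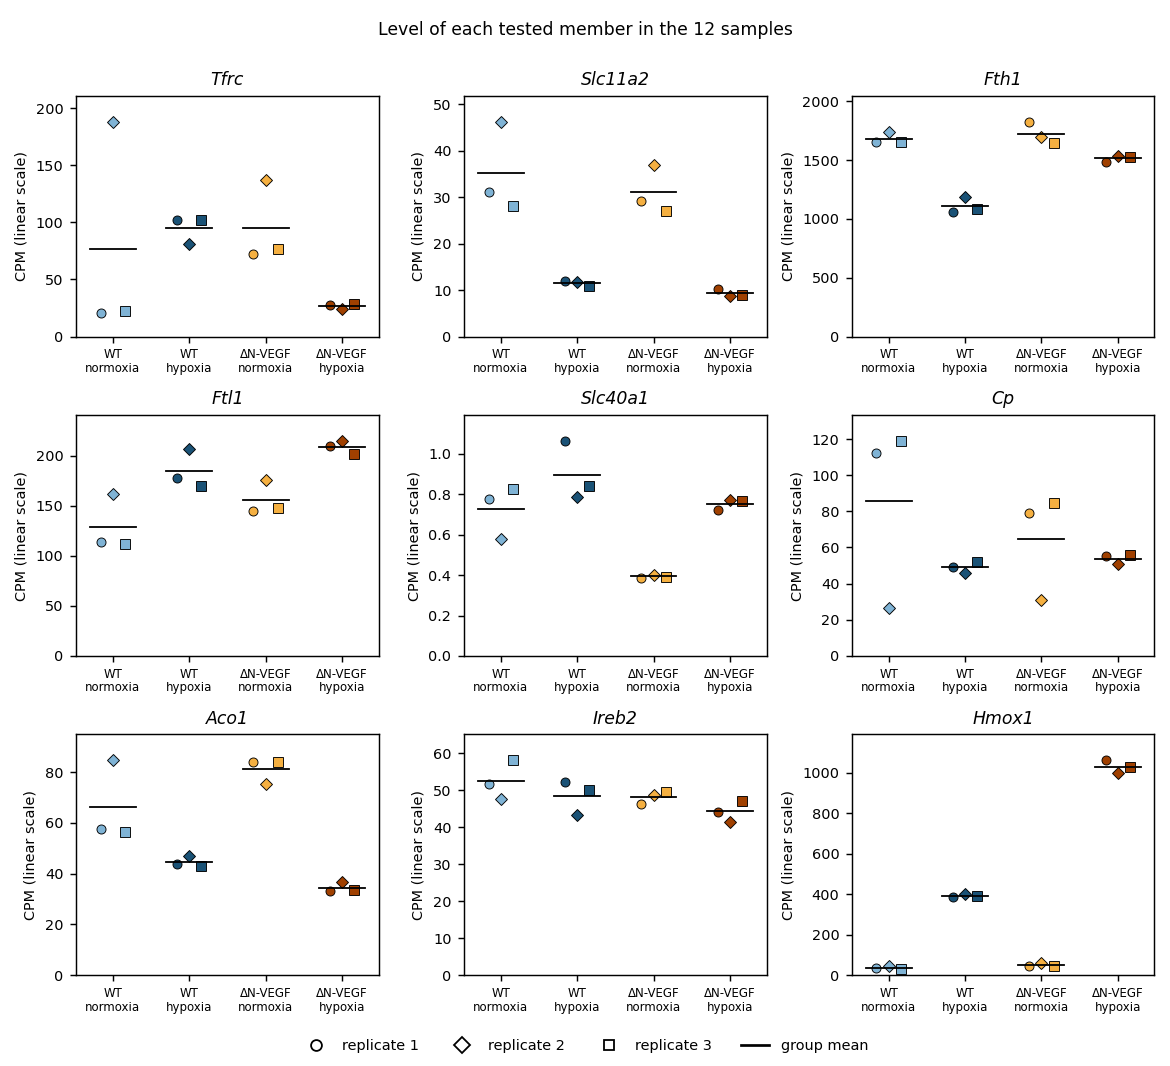
CPM of each of the 9 tested members in the 12 libraries, on linear axes from 0, with a marker shape for each replicate number and a bar at the mean of each group of 3. Hmox1 was higher in all 6 hypoxia libraries than in all 6 normoxia libraries, and Tfrc and Cp show replicate 2 far from its partners in normoxia in both lines.

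Tfrc, the transferrin receptor that brings iron-loaded transferrin into the cell (chr16:32608920-32632794), had opposite patterns in the lines once the deviating library was set aside. Its CPM was 20.98, 188 and 22.0 in wild type normoxia and 102, 81.2 and 102 in wild type hypoxia. In ΔN-VEGF it was 72.0, 137 and 76.4 in normoxia and 27.6, 24.3 and 28.3 in hypoxia. Replicate 2 was the highest library in both normoxia groups, and in wild type it alone lay above hypoxia, while in ΔN-VEGF the groups did not overlap. Across all 12 libraries the change in wild type was 0.31 ± 0.68 on the log2 scale (SE, n = 3, edgeR adjusted p = 0.754). In ΔN-VEGF Tfrc fell by 1.83 ± 0.70 (edgeR adjusted p = 0.0469), and the difference between the responses, -2.14 ± 0.97, did not pass (edgeR adjusted p = 0.239). The ΔN-VEGF fall kept its direction in all 19 alternatives but passed in 9 of them, and with the replicate number as a block it was -1.67 (edgeR adjusted p = 0.0516). Without wild type normoxia replicate 2 alone, Tfrc rose by 2.15 ± 0.24 in wild type (edgeR adjusted p = 7.47e-06) and fell by 1.84 ± 0.20 in ΔN-VEGF (3.6e-06), and the difference was -3.99 ± 0.32 (1.31e-06). Without both libraries numbered 2 the rise was 4.45-fold (edgeR adjusted p = 4.82e-14), the fall 2.79-fold (4e-12) and the difference -3.63 ± 0.13 on the log2 scale (1.78e-14). That 1 library thus decided whether the wild type rise and the difference between lines passed the test. DESeq2, run with its default filter for outlying counts, returned no p for Tfrc.

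By Pearson correlation of log2 CPM over the 12 libraries, among 8523 genes with a mean of at least 10 CPM, the genes most like Tfrc were E2f7 (0.992), an E2F-family repressor, Gmnn (0.988), which encodes the replication-licensing inhibitor geminin, Cdc6 (0.980), a replication-licensing factor, Mybl2 (0.976), a MYB transcription factor, and Cox7b (0.971), a subunit of cytochrome c oxidase. These points share 4 groups and the same deviating libraries, so the coefficients are a description.

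Slc11a2, the divalent metal transporter that passes iron from endosome to cytosol (chr15:100387898-100425072), fell in both lines. It measured 31.2, 46.3 and 28.0 CPM in wild type normoxia and 12.04, 11.7 and 10.9 CPM in hypoxia. In ΔN-VEGF the values were 29.2, 37.0 and 27.0 CPM in normoxia and 10.3, 8.81 and 9.05 CPM in hypoxia. Every hypoxia library lay below every normoxia library. The fall was 3.05-fold in wild type (log2 -1.61 ± 0.19, edgeR adjusted p = 6.83e-05) and 3.31-fold in ΔN-VEGF (-1.73 ± 0.19, 2.33e-05). The responses differed by -0.12 ± 0.26 (edgeR adjusted p = 0.828). Gm5475 overlaps this gene on the opposite strand and had at most 3 counts in a library. Trf, which encodes the carrier protein transferrin itself and is made chiefly by liver (chr9:103204001-103230444), had 0 to 2 counts per library, under the floor of 3 counts, and was not tested; it overlaps Gm20425 on the same strand, which had no counts.

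Of the ferritin chains, the light chain rose in both lines while the heavy chain fell in wild type. Fth1 (chr19:9982703-9985092) encodes the heavy chain, which oxidizes ferrous iron. It measured 1652, 1736 and 1653 CPM in wild type normoxia and 1055, 1184 and 1088 CPM in hypoxia. The ΔN-VEGF values were 1827, 1693 and 1646 CPM in normoxia and 1483, 1539 and 1530 CPM in hypoxia. Hypoxia lay below normoxia without overlap in each line, by a wide gap in wild type and a narrow one in ΔN-VEGF. The fall was 1.52-fold in wild type (log2 -0.60 ± 0.08, edgeR adjusted p = 0.000174), and the change in ΔN-VEGF was -0.18 ± 0.08 (0.0749), which passed in 5 of 20 alternatives, among them DESeq2 (0.0398) and total counts alone, at -0.59 (0.000117). In hypoxia Fth1 was 1.37-fold higher in ΔN-VEGF than in wild type (log2 0.45 ± 0.08, edgeR adjusted p = 0.00333), but with total counts alone by 0.23 on the log2 scale, which did not pass (0.0615). The difference in response was 0.42 ± 0.11 (edgeR adjusted p = 0.0688). Without both libraries numbered 2 that difference was 0.37 ± 0.09 and passed (0.00132), as did the ΔN-VEGF fall of -0.20 ± 0.06 (0.00607).

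Ftl1, the ferritin light chain, which aids the mineral core (chr7:45457944-45459884), measured 114, 162 and 112 CPM in wild type normoxia and 178, 206 and 170 CPM in hypoxia. In ΔN-VEGF it was 145, 176 and 148 CPM in normoxia and 210, 215 and 201 CPM in hypoxia. The hypoxia libraries lay above the normoxia libraries of their line in each case. The rise was 1.43-fold in wild type (log2 0.52 ± 0.15, edgeR adjusted p = 0.0174) and 1.34-fold in ΔN-VEGF (0.42 ± 0.15, 0.0314), but with total counts alone the ΔN-VEGF value was 0.02 (0.878). Of 20 alternatives, 16 kept the wild type rise past the threshold, with adjusted p up to 0.0831, and 12 the ΔN-VEGF rise. On the scale of CPM per kilobase of exon, Fth1 exceeded Ftl1 by 7.48 ± 1.26 times (SD, n = 3) in wild type normoxia and 3.38 ± 0.20 times in wild type hypoxia. In ΔN-VEGF the ratio was 6.24 ± 0.84 in normoxia and 4.08 ± 0.16 in hypoxia. In neither line did the ratios of hypoxia, 3.21 to 3.59 and 3.96 to 4.26, overlap those of normoxia, 6.02 to 8.26 and 5.41 to 7.08. The lengths used were 2390 bases for Fth1, its whole locus, and 1340 for Ftl1, so the size of the ratio depends on them. In CPM, wild type normoxia averaged 1680 for Fth1 and 129 for Ftl1. The table has 14 other ferritin-like rows, 11 of them with no count and all with 508 counts together, and reads could be split between such copies and the parent genes. Ftl1 also overlaps Gm10252 on the opposite strand, which had at most 21 counts.

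Slc40a1, which encodes ferroportin, the exporter of iron (chr1:45908068-45926523), was scarce. Its CPM was 0.78, 0.58 and 0.83 in wild type normoxia and 1.06, 0.79 and 0.84 in wild type hypoxia, which overlapped. In ΔN-VEGF it was 0.39, 0.40 and 0.39 in normoxia and 0.72, 0.77 and 0.77 in hypoxia, which did not. Slc40a1 rose 1.90-fold in ΔN-VEGF (log2 0.93 ± 0.22, edgeR adjusted p = 0.00479), and its change in wild type was 0.30 ± 0.21 (0.28). The responses differed by 0.63 ± 0.30, short of the threshold (edgeR adjusted p = 0.267). With total counts alone the ΔN-VEGF rise was 0.53 and no longer passed (0.0949).

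Cp, ceruloplasmin, a copper ferroxidase that works beside ferroportin (chr3:19957054-20009145), depended on the libraries numbered 2. It measured 112, 26.4 and 119 CPM in wild type normoxia and 49.1, 46.0 and 52.0 CPM in hypoxia. In ΔN-VEGF the values were 78.9, 31.1 and 84.5 CPM in normoxia and 55.2, 50.7 and 55.6 CPM in hypoxia. Replicate 2 was the lowest library of both normoxia groups and the only one of each below hypoxia. With all libraries the changes were -0.81 ± 0.47 in wild type (edgeR adjusted p = 0.207) and -0.27 ± 0.47 in ΔN-VEGF (0.657). Without those 2 libraries, with n = 2 in each normoxia group, they were -1.23 ± 0.06 (edgeR adjusted p = 9.54e-13) and -0.61 ± 0.06 (4.62e-08). The responses then differed by 0.62 ± 0.09 (edgeR adjusted p = 1.02e-05). Hps3 overlaps Cp on the opposite strand with 129 to 734 counts per library, and the counting is not stated to use strand, so reads of the shared stretch cannot be assigned.

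Of the iron sensors, IRP1 mRNA fell in both lines and no change of IRP2 mRNA passed the test. Aco1 (chr4:40143081-40198338) encodes IRP1, which is cytosolic aconitase when it carries an iron-sulfur cluster. Its CPM was 57.6, 84.7 and 56.5 in wild type normoxia and 43.9, 47.0 and 43.2 in hypoxia. In ΔN-VEGF it was 84.1, 75.2 and 84.1 in normoxia and 33.1, 36.9 and 33.6 in hypoxia. Hypoxia was lower in every library. Aco1 fell 1.48-fold in wild type (log2 -0.57 ± 0.14, edgeR adjusted p = 0.00969) and 2.35-fold in ΔN-VEGF (-1.23 ± 0.15, 4.04e-05). In wild type the value was -0.35 without wild type normoxia replicate 2 (edgeR adjusted p = 0.00242), and it did not pass in a fit of the 6 wild type libraries (0.0517). The difference in response was -0.66 ± 0.20 (edgeR adjusted p = 0.0956), and without both libraries numbered 2 it was -0.94 ± 0.09 and passed (2.45e-08). Ireb2 (chr9:54863789-54912530) encodes IRP2, which is controlled mainly by protein decay. It ranged from 41.5 to 58.1 CPM over all 12 libraries, and its changes with hypoxia were -0.11 ± 0.10 in wild type (edgeR adjusted p = 0.423) and -0.12 ± 0.10 in ΔN-VEGF (0.353). Total counts alone made the ΔN-VEGF change -0.52 (0.00574), where the median gene shifted by -0.41.

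Hmox1, heme oxygenase 1 (chr8:75093621-75100589), had the largest rise of the 9 tested members in each line, and ΔN-VEGF rose further. Its CPM was 35.3, 43.7 and 31.7 in wild type normoxia and 384, 402 and 390 in wild type hypoxia. In ΔN-VEGF it was 46.5, 59.5 and 46.9 in normoxia and 1061, 999 and 1026 in hypoxia. No library of one group lay within the range of another. The rise was 10.6-fold in wild type (log2 3.41 ± 0.14, edgeR adjusted p = 3.53e-08) and 20.2-fold in ΔN-VEGF (4.34 ± 0.15, 4.71e-09). Ordered by fold change among 14724 genes, Hmox1 stood at place 158 from the top in wild type and 160 in ΔN-VEGF. In hypoxia it was 2.62-fold higher in ΔN-VEGF (log2 1.39 ± 0.13, edgeR adjusted p = 9.56e-05), and in normoxia the difference was 0.47 ± 0.13 (0.0697). The responses themselves differed by 0.93 ± 0.18 (edgeR adjusted p = 0.0262). This difference had the same direction in all 19 alternatives, from 0.74 to 1.05, but passed the threshold in 10 of them, with adjusted p from 2.19e-08 to 0.0937.

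The genes most like Hmox1 over the 12 libraries, by the same measure, were Slc41a2, a magnesium transporter, Bsg, the glycoprotein basigin, Pttg1ip, Pvr, the poliovirus receptor CD155, and Tcf25, with coefficients from 0.997 to 0.9995. As for Tfrc, the points share 4 groups, so the coefficients are a description. Of 7 genes listed as targets of NRF2, a regulator that also acts on Hmox1 and the ferritins, 1 rose and 1 fell in wild type, and 1 rose and 2 fell in ΔN-VEGF, beside 18.2% and 18.3%, and 26.9% and 26.4%, of all tested genes. In the reduced set the counts were 3 and 1 in wild type, beside 32.8% and 32.5% of all tested genes, and 3 and 3 in ΔN-VEGF, beside 35.4% and 36%. Slc7a11, the cystine importer, rose by 0.91 and 1.20 on the log2 scale (edgeR adjusted p = 1.86e-05 and 1.27e-06), while Nqo1, a quinone reductase, had -0.50 (0.182) and fell by 1.05 (0.00876), in wild type and ΔN-VEGF. In the reduced set the Nqo1 change in wild type was 0.05 (edgeR adjusted p = 0.496).

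**Figure D2:**
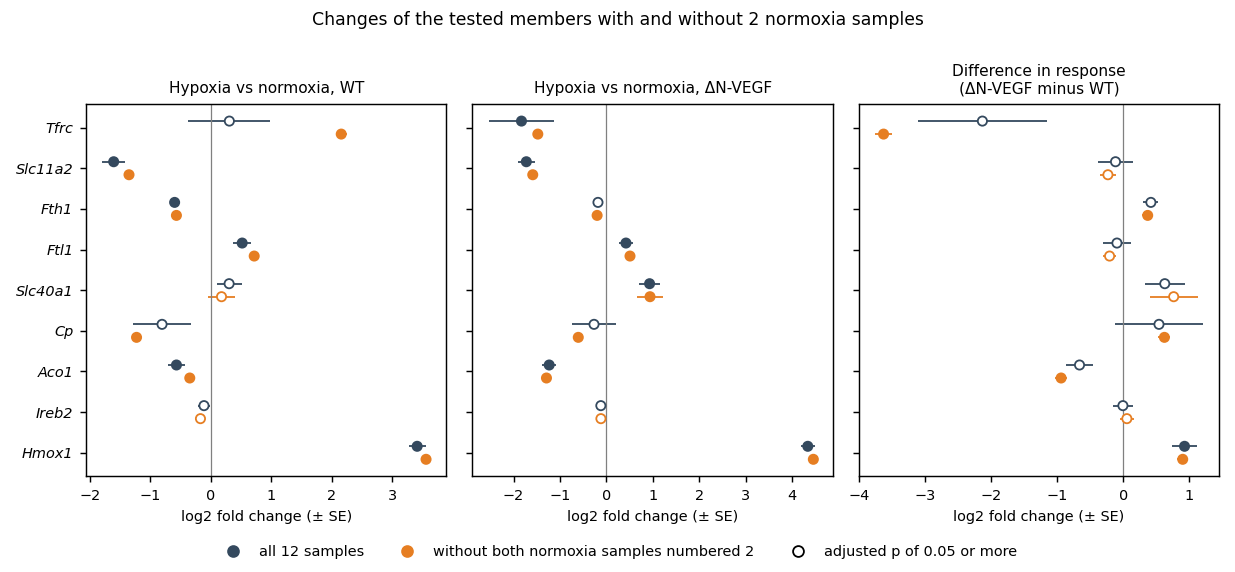
Log2 fold change ± SE of the 9 tested members for hypoxia against normoxia in each line and for the difference between the responses, with all 12 samples (dark) and without both normoxia samples numbered 2 (orange), filled where the edgeR adjusted p was below 0.05. Tfrc in wild type moved from 0.31 to 2.15 and its difference in response from -2.14 to -3.63, while Hmox1 stayed at 3.41 and 3.56 in wild type.

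Between the lines in normoxia, the number of members called turned on the libraries numbered 2. With all libraries 0 members were higher in ΔN-VEGF and 1 was lower, against 1.39% and 2.97% of all tested genes. The lower gene was Slc40a1, 1.85-fold (log2 -0.88 ± 0.22, edgeR adjusted p = 0.047), which passed in 4 of 21 alternatives. The libraries numbered 2 deviated together in this comparison. With the replicate number as a block on the 6 normoxia libraries, Slc40a1 had -0.87 ± 0.27 (edgeR adjusted p = 0.279). That fit called 0 members and 1 gene in all, 0.00718% of the genes it tested. Without both libraries numbered 2, 6 members were called, against 53.6% of all tested genes, among them Tfrc (3.48-fold higher in ΔN-VEGF, edgeR adjusted p = 1.57e-11) and Aco1 (1.49-fold higher, 5.18e-07). In hypoxia 2 members were higher in ΔN-VEGF, Hmox1 and Fth1, and 0 lower, against 10.8% and 9.36%. Without both libraries numbered 2, 3 were higher and 3 lower, against 27.5% and 28.3%. In all, 4 were called without wild type normoxia replicate 2 alone, against 42.4%, and 6 in a fit of the 6 hypoxia libraries, against 57%. Tfrc was 3.56-fold lower in ΔN-VEGF hypoxia with no overlap between groups but did not pass with all libraries in the fit (log2 -1.83 ± 0.70, edgeR adjusted p = 0.0909), and passed without the normoxia libraries numbered 2 (-1.83 ± 0.08, 3.18e-13). For the difference in response, Hmox1 was the 1 member called, with a larger rise in ΔN-VEGF, and 0 were called the other way, against 2.21% and 1.15% of all tested genes. Without both libraries numbered 2, 3 members were called with a higher and 2 with a lower value, against 25.8% and 27% (52.8% in either direction).

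The 9 tested members spanned a wide range of levels. In CPM per kilobase of exon, wild type normoxia gave 703 ± 20.2 for Fth1 (SD, n = 3), 96.4 ± 21 for Ftl1, 21.1 ± 3.54 for Hmox1 and 14.7 ± 3.55 for Aco1. Tfrc at 12.5 ± 15.6 and Cp at 8.97 ± 5.39 could not be placed within this order because of their spread. Slc11a2 at 5.54 ± 1.53 and Ireb2 at 5.53 ± 0.56 had ranges that overlapped, and Slc40a1 was lowest of the 9 tested members at 0.081 ± 0.015. In hypoxia Hmox1 passed Ftl1: it reached 224 ± 5.30 in wild type, beside 138 ± 14.3 for Ftl1 and 464 ± 28.0 for Fth1. In ΔN-VEGF it reached 587 ± 17.6, beside 635 ± 12.5 for Fth1 and 156 ± 5.10 for Ftl1. The exon length, the union over annotated transcripts, was 2390 bases for Fth1, its whole locus, and 1751 for Hmox1. In CPM the ΔN-VEGF hypoxia means were 1517 for Fth1 and 1029 for Hmox1, so their closeness depends on the lengths used.

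**Figure D3:**
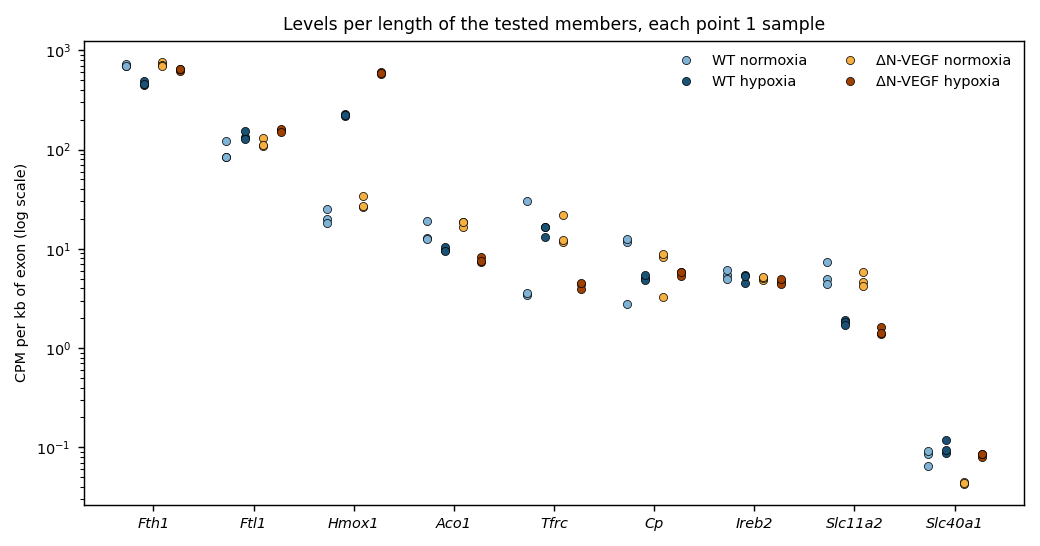
CPM per kilobase of exon of the 9 tested members on a log axis, each point 1 library and each color 1 of the 4 groups. In ΔN-VEGF hypoxia Hmox1, at a mean of 587, lay close to Fth1, at 635, while Slc40a1 stayed below all others in every group. The Fth1 length used, 2390 bases, covers its whole locus, and in CPM the means were 1029 for Hmox1 and 1517 for Fth1.

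The 4 members in which the search found an IRE did not share a direction. Fth1, with a 5′ site, fell in wild type, and Ftl1, also with a 5′ site, rose in both lines. Slc40a1, the other member with a 5′ site, rose in ΔN-VEGF. Tfrc, with its 4 sites in the 3′ region, fell in ΔN-VEGF, and its direction in wild type turned on 1 library. These are mRNA levels, and translation, on which the 5′ sites act, was not measured. RefSeq promoter windows (GRCm38.p6), from 250 bases before to 50 after the start counted as 0, were found for 6 members and not for Trf, Slc11a2, Slc40a1 and Hmox1. They were searched on both strands for ACGTG and GCGTG, the core forms of the hypoxia response element, and for TGACNNNGC, the core of the antioxidant response element. The Tfrc windows for its 2 starts overlap and hold 1 and the same ACGTG, at -228 to -224 from the downstream start, and each holds 2 GCGTG. The latter form occurred once in an Fth1 window, at -50 to -46, and once for Ftl1, at -47 to -43. Neither form was in the windows of Ireb2, Aco1 and Cp, and TGACNNNGC was in none of the 6 members' windows. Of 32851 windows of this length, 43.8% held ACGTG or GCGTG and 12.4% held TGACNNNGC, so a match here is common.

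Beyond the members, 60 further iron and heme genes were listed and 52 tested. In wild type 7 rose and 12 fell, beside 18.2% and 18.3% of all tested genes, with a median log2 change of -0.11 beside -0.07 for all tested genes. In ΔN-VEGF 18 rose and 17 fell, beside 26.9% and 26.4%, with a median of -0.09 beside -0.01. In the reduced set 14 rose and 24 fell in wild type, beside 32.8% and 32.5%, and 19 rose and 21 fell in ΔN-VEGF, beside 35.4% and 36%. The same shares of all genes are the background of each list of hypoxic changes that follows. The lists that follow include the members in them.

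Among 11 tested genes of uptake and iron reduction, 2 rose and 2 fell in wild type, and 6 rose and 3 fell in ΔN-VEGF. The reduced set gave 4 and 5, and 7 and 3. Tfr2, a second transferrin receptor, rose 3.90-fold in wild type (edgeR adjusted p = 0.023) and 7.88-fold in ΔN-VEGF (0.002), from 0.395 and 0.274 CPM, the wild type rise passing in 15 of 19 alternatives. Steap3, the endosomal ferrireductase that works with the transferrin receptor, fell 3.23-fold (8.15e-05) and 4.0-fold (1.42e-05). Hfe, a partner of the transferrin receptors, rose 17.9-fold in ΔN-VEGF (2.97e-05), from 0.257 to 4.64 CPM, and measured 0.36 in wild type (0.534) on the log2 scale.

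Among 5 storage genes, 2 rose and 1 fell in wild type, and 3 rose and 0 fell in ΔN-VEGF, which without both libraries numbered 2 became 3 and 1 in each line. Ncoa4, the receptor that sends ferritin to lysosomes, rose by 0.77 (edgeR adjusted p = 0.000173) and 0.97 (1.88e-05) on the log2 scale. It was named after its values were seen. Among 4 export genes, 0 rose and 1 fell in wild type, and 2 rose and 1 fell in ΔN-VEGF, and the reduced set gave 0 and 3, and 2 and 2. Heph, hephaestin, a membrane ferroxidase related to ceruloplasmin, was 17.3-fold lower in ΔN-VEGF in normoxia (edgeR adjusted p = 1.15e-05) and 16.8-fold lower in hypoxia (1.23e-05), with 5.36 to 7.53 CPM in wild type normoxia and 0.308 to 0.490 CPM in ΔN-VEGF normoxia. With the replicate number as a block on the 6 normoxia libraries, the normoxia difference kept its size but did not pass (edgeR adjusted p = 0.0986). Tmprss6, a protease that restrains hepcidin in liver, rose 5.67-fold in ΔN-VEGF (0.00741), measured -0.14 in wild type on the log2 scale (0.887) and was 7.73-fold higher there than in wild type in hypoxia (0.0116).

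Among 5 genes of the iron regulatory proteins and their control, 0 rose and 2 fell in wild type, and 1 rose and 2 fell in ΔN-VEGF. In the reduced set the counts were 1 and 3, and 1 and 2. Of 8 tested genes of heme synthesis 2 rose and 1 fell in wild type, and 3 rose and 3 fell in ΔN-VEGF, and the reduced set gave 2 and 5, and 3 and 4. Alas1, the rate-limiting enzyme outside red cells, rose 2.02-fold in wild type (edgeR adjusted p = 0.000202) and 1.90-fold in ΔN-VEGF (0.000219). Cpox, coproporphyrinogen oxidase, rose 2.23-fold (5.04e-06) and 3.32-fold (1.49e-07). Of 10 genes of heme breakdown and transport, 2 rose and 1 fell in wild type, and 3 rose and 2 fell in ΔN-VEGF, and the reduced set gave 4 and 2, and 3 and 4. Flvcr1, listed here for heme transport, fell 2.60-fold (0.00716) and 3.69-fold (0.00077), in wild type 1.74-fold without normoxia replicate 2 (0.00244). Slc48a1, a carrier of heme out of endosomes and lysosomes, was 2.03-fold higher in ΔN-VEGF hypoxia than in wild type hypoxia (0.000583). Slc46a1, a folate and heme transporter, was 1.68-fold lower there (0.00806), and Por, the reductase that feeds electrons to heme oxygenase, 1.24-fold lower (0.0345), passing in 12 of 20 alternatives.

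Among 18 genes of mitochondrial iron and iron-sulfur assembly, 1 rose and 7 fell in wild type, and 3 rose and 9 fell in ΔN-VEGF. The reduced set gave 3 and 9, and 3 and 10. Glrx5, a glutaredoxin of iron-sulfur transfer, fell 2.12-fold in wild type (edgeR adjusted p = 0.0291) but 1.35-fold without wild type normoxia replicate 2 (0.0424), at 54.2 CPM the highest library of its group, and passed in 16 of 20 alternatives. In ΔN-VEGF it fell 2.63-fold (0.00582). Nubp1, a scaffold of cytosolic assembly, fell 3.38-fold in ΔN-VEGF (0.00117) and 1.93-fold in wild type (0.0425), the latter passing in 10 of 20 alternatives and not without wild type normoxia replicate 2, at -0.32 on the log2 scale (0.0896). Abcb10, a mitochondrial transporter linked to heme synthesis, rose 3.42-fold (1.01e-06) and 4.19-fold (1.78e-07).

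Between the lines, 0 of the 52 genes were higher and 2 lower in ΔN-VEGF in normoxia, against 1.39% and 2.97% of all tested genes, Heph and Fdxr, a ferredoxin reductase (1.29-fold lower, edgeR adjusted p = 0.0454), which passed in 19 of 20 and 7 of 21 alternatives. The block on the 6 normoxia libraries, which called 1 gene in all, left Heph 17.3-fold (0.0986) and Fdxr 1.28-fold lower (0.247). In normoxia without both libraries numbered 2, 18 of the 52 were higher and 14 lower, against 53.6% of all tested genes in either direction. In hypoxia 11 were higher and 3 lower, against 10.8% and 9.36%, and without both libraries numbered 2, 19 and 14, against 27.5% and 28.3%. Without wild type normoxia replicate 2 alone the counts were 16 and 11, against 21.2% in each direction. The genes called with all libraries included Slc39a14, a transporter of zinc and iron, 1.45-fold higher (0.00795). The response differed between lines for 5 of the 52, all toward a higher value in ΔN-VEGF, and for none in the opposite direction, against 2.21% and 1.15% of all tested genes. In the reduced set 16 differed toward a higher and 13 toward a lower value, against 25.8% and 27%.

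**Figure D4:**
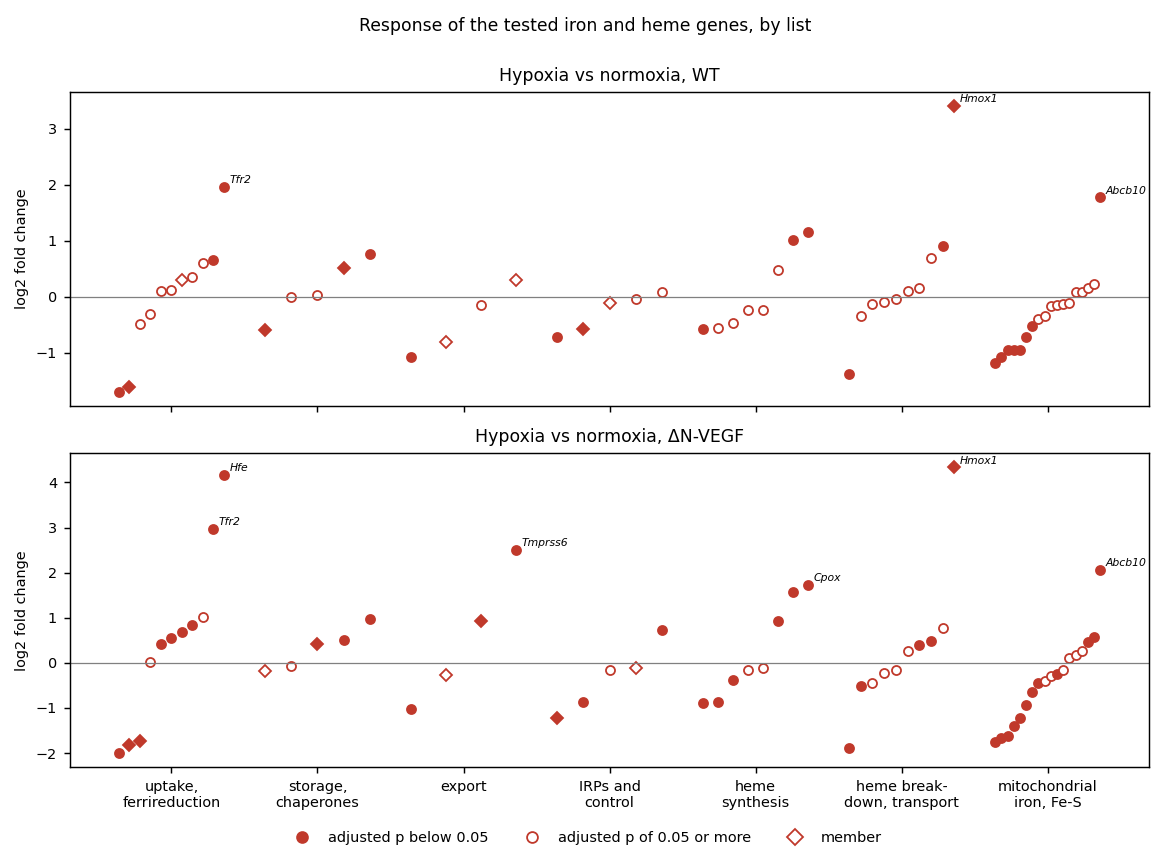
Log2 fold change for hypoxia against normoxia of the tested iron and heme genes, grouped by list and ordered by value within a list, in wild type (top) and ΔN-VEGF (bottom). Filled points have an edgeR adjusted p below 0.05, diamonds are members and the called genes with the largest rises are named. Hmox1 topped the heme breakdown list in both lines, at 3.41 and 4.34.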

How the data were processed

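RNA was extracted with Trizol and libraries were made with the TruSeq RNA v2 kit, which does not mark strand. The authors trimmed reads (Trim Galore, cutadapt 1.10), aligned them with TopHat2 2.1.0 and Bowtie2 2.2.6 to GRCm38 with Ensembl annotation, and counted them per gene with HTSeq 0.6.1; the strand setting is not given in the sources used here. The deposited values are raw counts for 12 samples, grouped by the labels. Here edgeR 4.0.16 (R 4.3.3) was used: TMM scaling, filterByExpr, 1 mean per group over all samples, quasi-likelihood tests and Benjamini-Hochberg adjustment over 14724 genes; calls needed an adjusted p below 0.05. The study used DESeq2, run here as version 1.42.0 among the alternatives. The SE was the absolute log2 change over the root of F. Depths of 30519052 to 43056690 counts limit precision for genes near 1 CPM, and the smallest exact permutation p of 3 against 3 would be 0.1.

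Replicate numbers come from the sample titles. When samples sharing a number were compared by their distance from the mean of their group, they correlated at 0.355 to 0.498 between the lines in normoxia. All 3 pairs passed 0.1 there, and the blocked value is given. Pairs of number 1 with number 3 correlated at 0.358 and 0.347, close to those sharing number 1 or 3, at 0.378 and 0.355. These values therefore do not show pairing by number. In the other comparisons at least 1 pair was below 0.1. Exon lengths and untranslated regions came from GENCODE M21, in which 54409 of 54446 genes were found. Further genes were named by rule: per comparison, up to 4 rises and 4 falls of largest size among called genes with a mean of at least 1 CPM. A gene that this rule named is not reported here. Members, gene lists and tests were chosen with earlier results of these data known.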

Additional observations from a re-analysis of the deposited data

Results flagged for a closer look

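The difference between the lines in the response to hypoxia, tested as an interaction in edgeR over all 12 libraries, passed an adjusted p of 0.05 for 1 member and for 6 further genes described here. Hmox1 rose further in ΔN-VEGF by 0.93 on the log2 scale (adjusted p = 0.0262). The differences were 1.57 for Vegfa (0.0281), 0.71 for Slc39a14 (0.0385), 3.81 for Hfe (0.0126), 0.57 for Cpox (0.0419), 0.82 for Slc48a1 (0.0352) and 0.70 for Fdxr (0.0177), all toward a higher value in ΔN-VEGF. Without both normoxia libraries numbered 2 all 7 passed again, at 0.90, 1.81, 0.51, 3.91, 0.54, 0.72 and 0.61 in the same order. In that fit 52.8% of all tested genes passed. Leaving out 1 library at a time brought the calls down to 0 members and 0 of the 52 tested wider genes at the lowest, and Hmox1 passed in 10 of 19 alternatives. Hfe passed in 16 of 18, and the other 5 genes in 6 to 10 of 19. In the edgeR fits, groups of 3 libraries were not tested for single deviating values.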

How the results depend on the processing

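For the 9 tested members, 895 alternative values were computed: 772 kept their direction and their side of the threshold, 52 kept direction but no longer passed, 50 passed newly and 21 changed sign. In each line the hypoxic responses of Hmox1 and Slc11a2, that of Fth1 in wild type and that of Aco1 in ΔN-VEGF passed in all 20 alternatives. The cause of the changes that follow was not tested. The share of all genes called is not given for every fit that follows. Where it is missing, the counts are not a result about these genes.

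Requiring a 2-fold change left 2 members in wild type hypoxia, 0 between lines in normoxia, 1 between lines in hypoxia and 0 for the difference in response, and 9, 1, 4 and 1 wider genes in the same order, with 14 in ΔN-VEGF hypoxia. DESeq2 called 14 wider genes in normoxia, and 3 members and 9 wider genes for the difference in response. Total counts alone gave 4 wider genes in normoxia, 4 members in hypoxia and 2 for the difference; the line differences became -0.00755 for Fth1 in normoxia and -0.0439 for Ftl1 and -0.0850 for Cp in hypoxia. No filter gave 9 wider genes between lines in hypoxia and 1 for the difference. At least 10 counts in every sample gave 4 wider genes in normoxia and 2 members for the difference. Fitting only the 6 samples compared gave 3 members in wild type hypoxia, 0 members and 1 wider gene in normoxia, and 6 and 33 between lines in hypoxia. For Ireb2, at -0.01, the difference in response became 0.0129 with RLE factors, 0.0169 with at least 10 counts and 0.0532 without both libraries numbered 2.

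The replicate block over all samples called 0 members and 5 wider genes between lines in normoxia; within the 6 normoxia samples, an alternative added after seeing the data, it called 0 and 0. In the other comparisons the block moved no count beyond 1.5 times.

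Without both normoxia libraries numbered 2, 38 wider genes were called in wild type hypoxia, 6 members and 32 wider genes in normoxia, 6 and 33 in hypoxia, and 5 and 29 for the difference. Of all tested genes, 65.3%, 53.6%, 27.5% higher with 28.3% lower, and 52.8% were called in the same order. Leaving out 1 library at a time gave 0 to 6 members and 1 to 32 wider genes in normoxia, 2 to 4 and 10 to 27 in hypoxia, and 0 to 4 and 0 to 26 for the difference, each highest count coming without wild type normoxia replicate 2. That fit called 7410 of 15145 tested genes in normoxia, 6425 in hypoxia and 6729 for the difference. Leaving out 1 library moved Tfrc from -0.15 to 2.15 in wild type hypoxia and from -0.14 to 2.16 between lines in normoxia, Slc11a2 from -0.320 to 0.0806 in normoxia and from -0.381 to 0.0201 for the difference, Fth1 from -0.00192 to 0.0759 in normoxia and Ireb2 from -0.0941 to 0.0446 for the difference. Depth limits Slc40a1, with 16 to 43 counts per library, and Trf.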
